A study of Homo sapiens with 8 samples.

Results

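The library labelled VCaPENZR was compared with the library of VCaP, the enzalutamide-sensitive line named in the same deposited table, across every gene that the table lists. The table lists 14800 genes, out of 16126 genes listed in any of the 3 tables of the study. A gene was compared where its level was at least 5 in one of both libraries, which held for 12502 genes. Levels are the deposited values, which are read counts adjusted for library size and lie near the CPM scale. The study sequenced polyadenylated RNA of prostate cancer cell lines in enzalutamide-sensitive and enzalutamide-resistant (ENZR) forms. The groups are VCaP, VCaPENZR, CWR-R1 and CWR-R1ENZR with 1 library each, and C4-2B and C4-2BENZR with 2 libraries each. The labels give no genotype, drug dose, exposure time or clone for VCaP or VCaPENZR. With 1 library on each side no test was possible, and "higher" and "lower" below compare these 2 libraries only. Where a pair of levels is given without library names, the first is that in VCaP and the second that in VCaPENZR; for the CWR-R1 libraries the first is CWR-R1 and the second CWR-R1ENZR.

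Enzalutamide is an antiandrogen: it keeps androgens from activating the receptor through which prostate cancer cells grow and make their secretory products. VCaP was grown from a vertebral metastasis of prostate cancer and carries a rearrangement that joins the androgen-driven gene TMPRSS2 to ERG, an ETS family transcription factor, so that androgen signalling drives ERG. CWR-R1 came from a relapsed prostate xenograft, and C4-2B is a castration-resistant derivative of LNCaP. The kallikreins KLK2 and KLK3, secreted proteases of which the second is prostate-specific antigen, are classical androgen-activated genes.

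KLK2 had the lowest log2 ratio of all compared genes, and KLK3 was among the 15 lowest. The 250 bases before the start site of each are shown because both carry the same match to an androgen response element. The sequences are RefSeq's for GRCh38.p14, on the plus strand, at chr19:50873189-50873438 for KLK2 and chr19:50854665-50854914 for KLK3, and capitals mark the match.
KLK2: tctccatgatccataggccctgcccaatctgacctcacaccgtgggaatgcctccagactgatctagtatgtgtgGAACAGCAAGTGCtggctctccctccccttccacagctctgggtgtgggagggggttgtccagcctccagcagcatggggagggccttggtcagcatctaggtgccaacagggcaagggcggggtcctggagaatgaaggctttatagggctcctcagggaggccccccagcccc
KLK3: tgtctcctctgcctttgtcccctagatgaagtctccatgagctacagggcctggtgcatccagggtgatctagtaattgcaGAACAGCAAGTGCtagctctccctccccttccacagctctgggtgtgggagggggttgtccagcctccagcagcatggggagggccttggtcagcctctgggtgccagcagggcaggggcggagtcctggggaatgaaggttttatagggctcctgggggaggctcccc
The match starts 175 bases before the KLK2 start site and 169 bases before that of KLK3. Aligned on it without gaps, 185 of 244 bases (75.8%) were identical. The motif searched was GNACANNNNGTNC on both strands. It was found in 634 of 35116 upstream stretches of the same length (1.81%), and in 3 of the 21 androgen-activated genes compared here that had a RefSeq stretch. The third of them was CENPN, a centromere protein, with a log2 ratio of 0.54. A match is a description of letters and does not show binding.

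The library labelled VCaPENZR did not carry the ERG signal that marks VCaP. ERG stood at 428 in VCaP (7523 reads) and at 0.179 in VCaPENZR (3 reads), 2398-fold lower (95% interval 820 to 11629). ERG was not listed in the CWR-R1 or C4-2B tables. Of the 8 genes associated with ERG-positive prostate tumours, 0 were at least 2-fold higher and 7 at least 2-fold lower, with a median log2 ratio of -5.41. Of all compared genes, 21.1% were at least 2-fold higher and 22% at least 2-fold lower. PLA1A, a phospholipase, stood at 300.2 in VCaP and at 0.179 in VCaPENZR (3 reads). CRISP3, a secreted cysteine-rich protein, stood at 577 and 9.23. NCALD, a calcium sensor, stood at 86.8 and 0.238 (4 reads). HLA-DMB, which helps to load MHC class II molecules, stood at 77.5 and 0.834. PLA1A, NCALD and HLA-DMB, and also KCNH8 and TDRD1 of this list, reached the level of 5 only in VCaP. They could therefore not count as higher, whereas CRISP3 reached 5 in both libraries. The marker of the line named on the label was thus at or near 0, and each result below is between the 2 libraries as labelled.

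Set beside the other libraries, VCaPENZR lay closest to CWR-R1ENZR by the share of compared genes that differed at least 2-fold. That share was 43.1% against VCaP and 14.2% against CWR-R1ENZR. It was 20.8% against CWR-R1, 36.1% against C4-2B replicate 1 and 35% against C4-2BENZR replicate 1. Between CWR-R1ENZR and CWR-R1 it was 20.1%, so VCaPENZR and CWR-R1ENZR differed at fewer genes than the pair of CWR-R1 libraries did. VCaP differed from CWR-R1 at 39.2% and from C4-2B replicate 1 at 38% of genes. Replicates of C4-2B differed at 0.19% and replicates of C4-2BENZR at 0.107%, which is the only measure of spread between libraries of one group. The tables were normalized separately, so levels set across them carry that difference as well. An effect of resistance and a difference between lines cannot be told apart in VCaPENZR against VCaP.

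**Figure D1:**
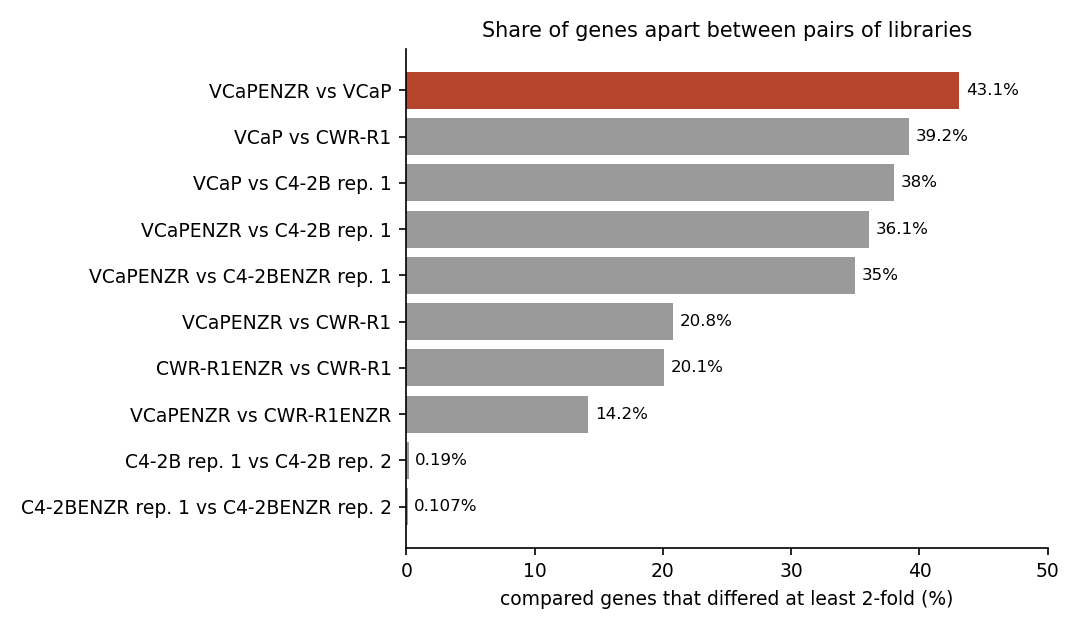
Share of compared genes, in percent, whose levels differed at least 2-fold, for 10 pairs of libraries (bars; the red bar is VCaPENZR against VCaP). VCaPENZR against VCaP has the longest bar of the pairs drawn at 43.1%, VCaPENZR against CWR-R1ENZR stands at 14.2%, and both replicate pairs stand below 1%.

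Depth was alike in both libraries. The listed genes held 18171891 reads in VCaP and 16235796 in VCaPENZR, within the range of 14503586 to 20248655 over all 8 libraries, and EEF1A1, a translation elongation factor, was the most abundant gene in each of the 8. A single read was worth a level of 0.0569 in VCaP and 0.0595 in VCaPENZR. Intervals of single folds are exact binomial (Clopper-Pearson) at 95%. They hold counting error alone. Without molecular identifiers several reads can stem from 1 molecule, so even that error may be larger than the intervals show. Where one library had no read, the fold is a lower bound against a floor of 3 reads in that library. Markers of fibroblasts, endothelium and blood were scarce: 2, 1 and 1 of 7 genes in each list were compared. Of the fibroblast genes, LUM, a matrix proteoglycan, stood at 21.2 and 0.238, and COL1A1, a collagen chain, at 8.25 and 17.0. The endothelial gene VWF stood at 3.13 and 18.6, and LYZ, the lysozyme of blood cells, at 6.60 and 0.179 (3 reads). The defining markers COL3A1, DCN, PDGFRB, PECAM1, CDH5, KDR, PTPRC and HBB were not among the listed genes. The summed level of each of these lists lay between 3.13 and 29.5 in both libraries. In bulk RNA, fewer cells of a type and less RNA per cell cannot be told apart.

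Of the 12502 compared genes, 2643 (21.1%) were at least 2-fold higher in VCaPENZR and 2745 (22%) at least 2-fold lower. These shares are the background for every list. A gene near 0 in one library was compared only where the other reached 5, so its direction was set by the filter. The median log2 ratio was near 0 (0.005), and the 5th and 95th percentiles were -3.21 and 2.77. Large differences leaned towards lower levels. A difference of at least 10-fold, on the scale of level plus 1, was found for 388 genes higher and 588 lower, and one of at least 100-fold for 26 higher and 42 lower.

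**Figure D2:**
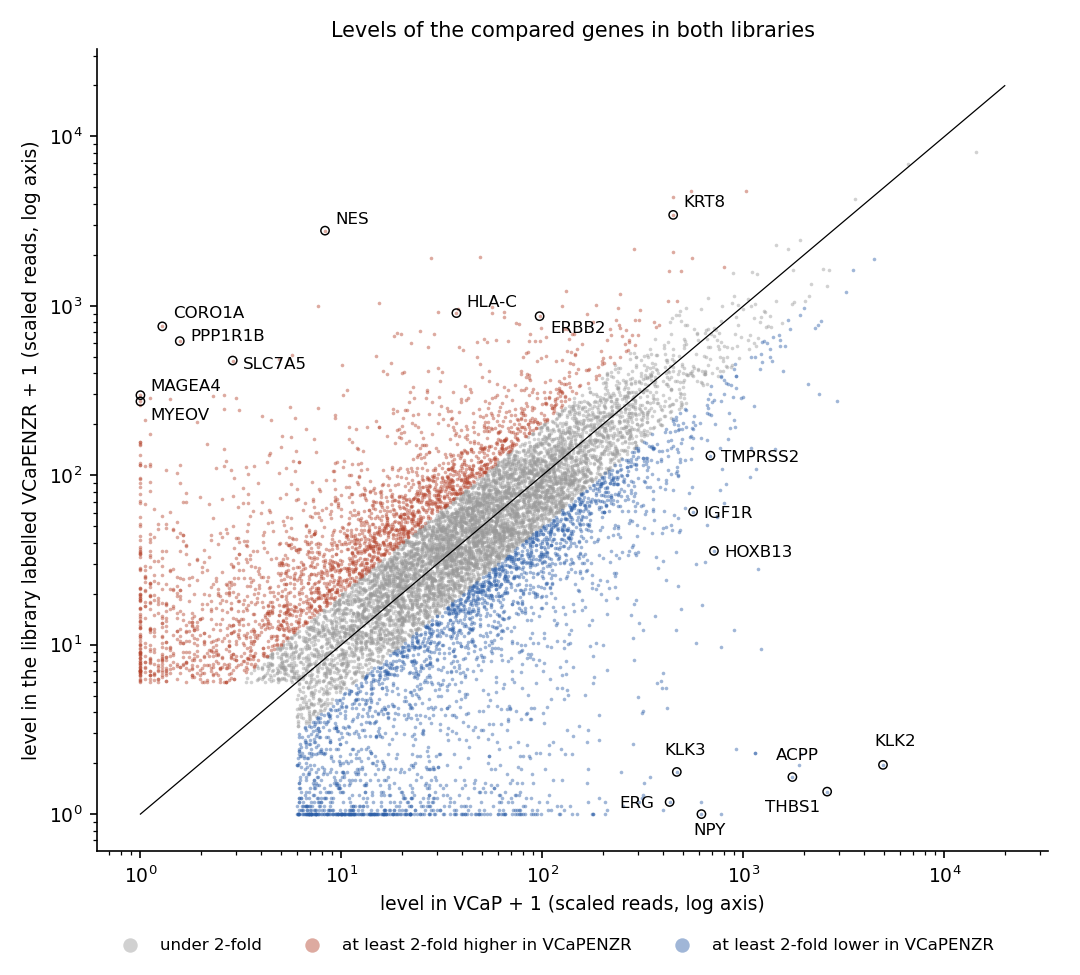
Level plus 1 of each compared gene (points) in VCaP on the horizontal axis and in the library labelled VCaPENZR on the vertical axis, both logarithmic; red and blue points differed at least 2-fold, and the line marks equal levels. KLK2 lies at the lower right at 4945 and 0.953, while NES lies far above the line at 7.29 and 2780.

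Of the 15 lowest genes reported, 5 were on the androgen-activated list, and the same 5 were its members among the 42 reported genes at least 100-fold lower on the scale of level plus 1. KLK2 stood at 4945 in VCaP and 0.953 in VCaPENZR, a 5191-fold lower level (interval 3196 to 9082). KLK3 stood at 465 and 0.774, 601-fold lower (351 to 1129). ACPP, prostatic acid phosphatase, stood at 1751 and 0.655, 2673-fold lower. PMEPA1, a membrane protein that restrains androgen and TGF-beta signalling, stood at 1943 and 1.25, and TRPM8, the cold-sensing channel of prostate epithelium, at 614 and 0.179 (3 reads). These levels were likewise low in the CWR-R1 libraries for KLK2 (4.72 in CWR-R1 and 0.134 in CWR-R1ENZR), KLK3 (1.96 and 0) and ACPP (5.13 and 1.07). PMEPA1 differed from these genes: CWR-R1 held a level of 147, while CWR-R1ENZR held 10.9. TRPM8 was not listed in the CWR-R1 table. In the C4-2B table KLK2 stood at 107 and 109 in C4-2B and at 211 and 225 in C4-2BENZR. KLK3 went the other way, at 2067 and 2024 in C4-2B and at 49.2 and 48.1 in C4-2BENZR. TMPRSS2, the membrane protease whose promoter drives the ERG fusion, was still read at 130 in VCaPENZR against 684 in VCaP, 5.28-fold lower (5.04 to 5.53). SLC45A3, the prostate solute carrier also called prostein, stood at 265 and 33.0, 8.02-fold lower.

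Over the androgen-activated list, 3 of 33 compared genes were at least 2-fold higher and 22 at least 2-fold lower, and the median log2 ratio was -1.68. Against CWR-R1ENZR the median of the same list was 0.24, with 5 of 24 genes higher and 3 lower. The members that stood higher than in VCaP included TSC22D3, the glucocorticoid-induced leucine zipper, at 3.02 and 222, and ABCC4, an organic anion exporter, at 153 and 341. FKBP5, a steroid receptor cochaperone, was under 2-fold apart at 129 and 176, beside 897 and 103 in the CWR-R1 libraries. Genes that androgen withdrawal is known to raise were also low: 1 of 7 was higher and 6 were lower, with a median of -3.84. Among them DDC, aromatic amino acid decarboxylase, stood at 106 and 0.0595 (1 read). OPRK1, an opioid receptor, stood at 20.0 and ACKR3, an atypical chemokine receptor, at 16.4 in VCaP, with 1 read each in VCaPENZR. BCHE, butyrylcholinesterase, was the 1 gene higher, at 17.6 and 47.5.

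Of 20 compared luminal identity genes, 5 were higher and 11 lower, with a median log2 ratio of -2.20. The 5 higher were the keratins KRT8, KRT18 and KRT19, the tight junction protein CLDN7 and the transcription factor GATA3, the last at 0.797 and 5.48. FOXA1, a pioneer factor that opens chromatin for steroid receptors, stood at 859 in VCaP and 190 in VCaPENZR, 4.53-fold lower (4.36 to 4.70). HOXB13, the prostate homeobox factor, stood at 712 and 34.8, 20.5-fold lower (18.9 to 22.3). In the CWR-R1 libraries these factors stood at 371 and 297 (FOXA1) and at 53.6 and 83.4 (HOXB13). STEAP2 and STEAP1, metalloreductases of the prostate surface, stood at 1142 and 1.31 and at 316 and 3.04. AMACR, a racemase used as a prostate cancer stain, stood at 190 and 2.86. The simple-epithelium keratins were higher. KRT8 stood at 446 and 3444, 7.72-fold higher (7.54 to 7.91), KRT18 at 301 and 830, 2.76-fold higher (2.67 to 2.85), and KRT19 at 130 and 1224. KRT8 was higher in VCaPENZR than in CWR-R1 (677) and CWR-R1ENZR (1355).

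**Figure D3:**
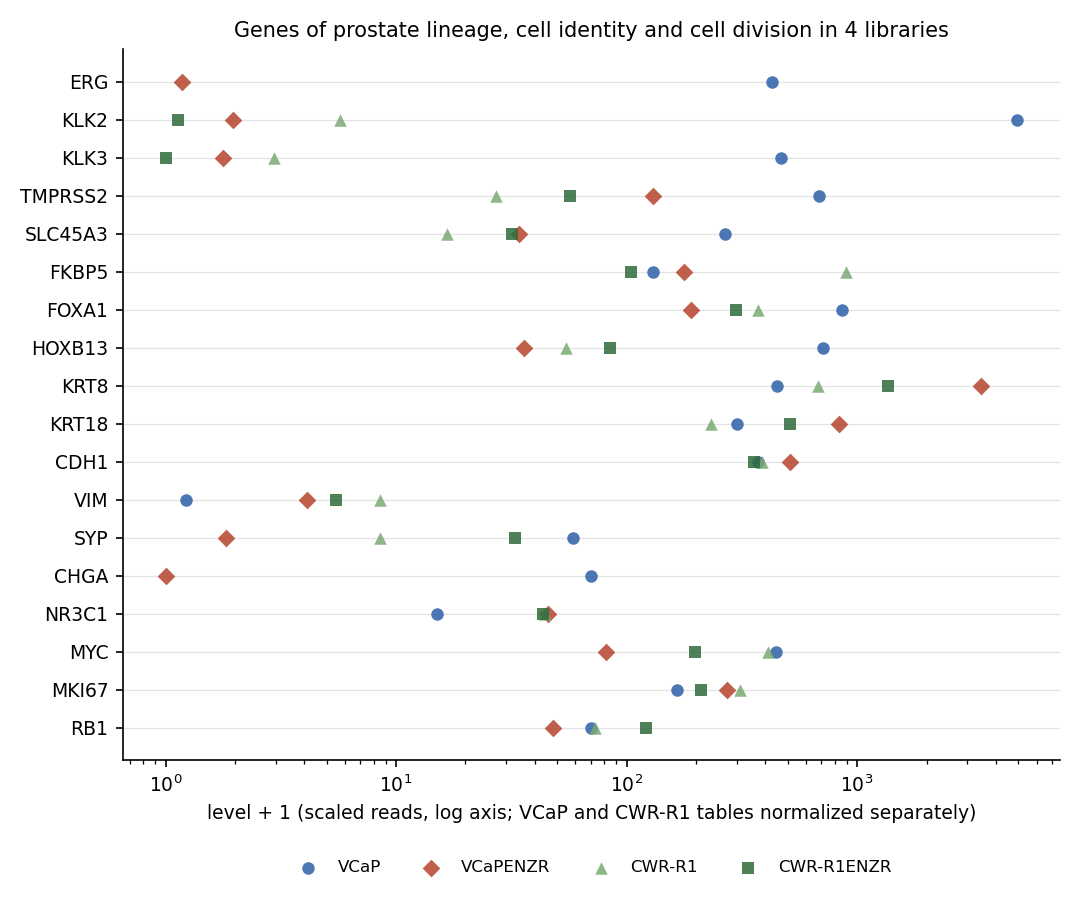
Level plus 1 (logarithmic axis) of 18 genes of prostate lineage, cell identity and cell division in VCaP, VCaPENZR, CWR-R1 and CWR-R1ENZR (1 point per library; no point where a table does not list the gene). ERG, KLK2 and KLK3 lie at the left edge in VCaPENZR (0.179, 0.953 and 0.774) and far to the right in VCaP (428, 4945 and 465), while CDH1 lies at 356 to 510 in the 4 libraries.

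Glucocorticoid targets stood mostly higher, while other genes of steroid handling divided. NR3C1, the glucocorticoid receptor, stood at 14.1 in VCaP and 44.4 in VCaPENZR, 3.16-fold higher (2.73 to 3.66), beside 43.4 in CWR-R1 and 42.2 in CWR-R1ENZR. Of 17 genes known as glucocorticoid targets, 11 were higher and 2 lower, with a median of 2.22. Relative to CWR-R1ENZR, 5 of the 17 were higher and 1 lower, with a median of 0.76. SCNN1A, the alpha subunit of the epithelial sodium channel, stood at 3.87 and 484, 125-fold higher (98.5 to 161). S100P, a calcium-binding protein, stood at 4.55 and 251, and ERRFI1, a feedback inhibitor of the EGF receptor, at 51.8 and 611. BIRC3, an inhibitor of apoptosis, and ZBTB16, a zinc finger repressor, were the 2 lower members, at 23.8 and 6.37 and at 45.1 and 16.6. Among 16 steroid receptors and enzymes, 6 were higher and 5 lower, with a median of 0.58. AKR1C2, which reduces dihydrotestosterone, stood at 0.512 and 52.0. AKR1C1, a related ketosteroid reductase, stood at 4.44 and 28.5, and SRD5A1, a 5-alpha reductase, at 13.7 and 77.9. HSD17B6, which can regenerate dihydrotestosterone from androstanediol, stood lower at 33.4 and 3.33, as did PGR, the progesterone receptor, at 5.01 and 0.119 (2 reads). AKR1C1 and AKR1C2 are close paralogs whose reads may be split by the counting.

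Of 19 compared ETS factors other than ERG, 8 were higher and 3 lower, with a median of 0.30. ETV4 stood at 0 in VCaP and 94.8 in VCaPENZR, at least 555-fold higher. ETV5 stood at 0.114 (2 reads) and 80.0, 702-fold higher with an interval of 194 to 5805, and ETV1 at 0.114 (2 reads) and 22.0. These 3 factors form the PEA3 subfamily, which responds to ERK signalling. In CWR-R1 and CWR-R1ENZR, ETV4 stood at 13.3 and 50.7, ETV5 at 24.4 and 36.4, and ETV1 at 61.4 and 38.6. FEV, a neuronal ETS factor, was lower at 11.3 and 0.119 (2 reads).

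Epithelial junction genes mostly stood within 2-fold: of 32, 5 were higher and 7 lower, with a median of 0.20. CDH1, E-cadherin, stood at 371 and 510. Desmosome parts differed among themselves. PKP1, a plakophilin, stood at 398 and 0.0595 (1 read), and the desmocollins DSC2 at 128 and 1.25 and DSC3 at 88.3 and 0, the last at least 494-fold lower. DSP, desmoplakin, was higher at 77.8 and 237, while JUP (611 and 953), DSG2 (279 and 375) and PKP3 (255 and 157) stood within 2-fold. The adhesion molecule EPCAM stood at 327 and 60.1, while the tight junction genes TJP3 (9.96 and 163) and CLDN7 (54.9 and 284) were higher. Among basal and squamous genes, 8 of 14 were higher and 5 lower, with a median of 1.53. TGM3, a transglutaminase of the cornified envelope, stood at 0.398 and 283 and SFN, stratifin, at 0.683 and 68.8. Mesenchymal genes were higher in 6 of 7, lower in 0, with a median of 2.37, yet several started from few reads. Of 15 listed genes only these 7 were compared. S100A4, SNAI2 and TWIST1 were among those that reached the level of 5 only in VCaPENZR, so they could count only as higher. Of 10 members compared with CWR-R1ENZR, 2 were higher and 4 lower in VCaPENZR, with a median of -0.60. VIM, vimentin, stood at 0.228 (4 reads) and 3.10 (52 reads), beside 7.56 in CWR-R1 and 4.49 in CWR-R1ENZR. FN1, fibronectin, stood at 8.31 and 217, S100A4 at 0.569 and 88.7, and TWIST1, a transcription factor of epithelial-mesenchymal transition, at 0 and 50.7, at least 297-fold higher.

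Neuroendocrine genes pointed both ways. Of 22 compared, 7 were higher and 10 lower, with a median of -0.78. The 7 higher were DLL3, ENO2, REST, SOX2, SYT1, TUBB3 and EZH2, the last also on the chromatin regulator list. The 10 lower were CHGA, CHGB, INSM1, NKX2-1, SCG2, SCG3, SRRM4, SYP, SYT4 and UCHL1. The dense-core granule proteins were lower: CHGA stood at 69.3 and 0, at least 388-fold lower, and CHGB at 109 and 0.0595 (1 read). SYP, synaptophysin, stood at 57.4 and 0.834, 68.8-fold lower (40.8 to 126), beside 7.49 in CWR-R1 and 31.8 in CWR-R1ENZR. ENO2, neuron-specific enolase, was higher at 14.5 and 1039, as was TUBB3, a neuronal tubulin, at 12.4 and 191. The stem and plasticity list, with 8 of 23 higher and 8 lower, held 2 of the 15 highest genes of the comparison. NES, the neural stem cell filament nestin, stood at 7.29 and 2780, 381-fold higher (321 to 457), beside 243 in CWR-R1 and 1718 in CWR-R1ENZR. TRPS1, a GATA-type repressor, stood at 0.114 (2 reads) and 284. TBX3, a T-box repressor of luminal progenitors, went the other way at 770 and 8.75, and ALDH1A1, a retinal dehydrogenase, at 86.8 and 3.22.

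Receptor tyrosine kinases and their ligands leaned higher, with 15 of 28 higher, 7 lower and a median of 1.49. ERBB2, the HER2 receptor, stood at 95.8 and 868, beside 153 in CWR-R1 and 662 in CWR-R1ENZR. EPHA2, an ephrin receptor, stood at 1.59 and 141, and ERBB4 at 0.0569 (1 read) and 13.3. The ligand FGF9 stood at 0 and 18.8, at least 110-fold higher, while HGF, the ligand of MET, stood at 17.1 and 0, at least 95.6-fold lower. IGF1R, the type 1 insulin-like growth factor receptor, was lower at 561 and 60.0, 9.34-fold (8.76 to 9.98), and stood at 33.0 in each CWR-R1 library. In the insulin-like growth factor list, 3 of 9 were higher and 3 lower. Its RNA-binding proteins IGF2BP2 (2.05 and 64.4) and IGF2BP3 (2.05 and 41.5) were higher and its secreted binding proteins IGFBP3 (801 and 67.3) and IGFBP5 (29.9 and 1.25) lower. In the CWR-R1 libraries IGFBP3 stood at 2.70 and 758, so that VCaPENZR lay between these.

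Immediate early and ERK feedback genes were higher in 26 of 34 and lower in 2, a share well above the 21.1% of all genes, with a median of 2.00. Against CWR-R1ENZR the median was 0.09, with 3 of 36 higher and 5 lower. DUSP5, a nuclear ERK phosphatase, stood at 2.11 and 241, 115-fold higher (83.0 to 163), beside 1.62 in CWR-R1 and 70.2 in CWR-R1ENZR. IER3, an early response gene, stood at 0.285 (5 reads) and 56.2. The 2 lower members were DUSP2, another ERK phosphatase, at 132 and 9.11, and MYC, the growth-promoting transcription factor, at 446 and 80.4, 5.55-fold lower (5.24 to 5.88). In the CWR-R1 libraries MYC stood at 411 and 197, so VCaPENZR was the lowest of the 4 libraries.

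Other developmental pathways held members at both ends, as did all compared genes, of which 21.1% were higher and 22% lower. NOTCH genes were higher in 9 of 18 and lower in 3, with a median of 0.97. The receptor NOTCH1 stood at 11.2 and 96.6, and the target HES1 at 8.25 and 70.3. The ligand JAG1 was lower at 93.0 and 25.2. Of 34 WNT genes, 7 were higher and 10 lower, with a median of 0.12. The ligands WNT2 (76.8 and 0) and WNT16 (47.6 and 0) had no read in VCaPENZR, so that WNT2 was at least 430-fold lower. The receptor FZD4 stood at 463 and 11.2, whereas the ligand WNT7B stood higher at 19.2 and 216. The TGF-beta and BMP list had 8 of 29 higher and 7 lower. The ligand TGFB1 (0.512 and 42.3) and the signal carrier SMAD3 (19.6 and 243) were higher, and the ligand BMP7 (92.5 and 0.0595, 1 read) and the BMP antagonist GREM1 (63.4 and 0, at least 355-fold) lower. HOX genes, which set position along the body axis, had 7 of 18 higher and 8 lower. HOXA13 stood at 85.3 and 1.13, and HOXC13 and HOXC10 were higher at 2.45 and 50.4 and at 0.740 and 17.1.

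Extracellular matrix genes stood on both sides, with 7 of 24 higher and 11 lower. Their median of -0.20 turned to 0.35 when genes of low level were included. The same list stood mostly lower than in CWR-R1ENZR, with a median of -1.21, 2 of 27 genes higher and 14 lower. The matrix glycoprotein THBS1, thrombospondin, stood at 2608 and 0.357 (6 reads), 7301-fold lower (3354 to 19897), beside 5.06 in CWR-R1 and 1.41 in CWR-R1ENZR. SPON2, a secreted spondin, stood at 1898 and 0.953, and FBLN2, fibulin, at 1134 and 1.31. ADAMTS1, a matrix protease, stood at 388 and 5.12, while LAMB3, a laminin chain, was higher at 1.48 and 44.6. Integrins, the receptors of the matrix, had 3 of 12 higher and 3 lower: ITGA6 stood at 230 and 20.8 and ITGA2 at 4.78 and 23.5.

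Cell cycle genes of the late phase were higher. In the G2/M and mitosis list 25 of 40 were at least 2-fold higher and 1 lower, with a median of 1.12, and in the G1/S and replication list 8 of 40 were higher and 2 lower, with a median of 0.40. NUF2, a kinetochore subunit, stood at 15.1 and 87.6, AURKB, a mitotic kinase, at 20.3 and 108, and CCNA2, cyclin A, at 44.7 and 205. CDC25A, a phosphatase that activates cyclin-dependent kinases, was the 1 lower member, at 46.7 and 18.0. MKI67, the proliferation antigen, stood at 165 and 271, under 2-fold apart. CDT1, a replication licensing factor, stood at 29.3 and 201, and MCM6, a helicase subunit, at 117 and 51.8. Of the cyclin D and inhibitor list 7 of 15 were higher and 1 lower. CDK6, a kinase of early G1, stood at 1.82 and 106, 58.2-fold higher (41.1 to 85.4), beside 141 and 138 in CWR-R1 and CWR-R1ENZR. The related kinase CDK4 was lower at 185 and 75.0. The inhibitor CDKN2A stood at 11.04 and 58.1. RB1, their substrate, stood at 68.9 and 47.1. Homologous recombination genes had 4 of 34 higher and 5 lower, with FANCA at 13.6 and 68.3 and RAD51D at 34.0 and 6.01.

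In the BCL2 family of cell death regulators 6 of 15 were higher and 4 lower. The death-promoting members divided. BBC3 (5.92 and 46.5), PMAIP1 (2.96 and 24.0) and HRK (0 and 6.07, at least 35.6-fold) were higher. BAD (238 and 49.1) and BOK (163 and 26.2) were lower.

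Stress response genes leaned higher for the integrated stress response. Of 36 ATF4 and unfolded protein response genes, 20 were higher and 3 lower, with a median of 1.10. SLC7A5, the large neutral amino acid transporter, stood at 1.88 and 475, 253-fold higher (180 to 367), beside 291 in CWR-R1 and 247 in CWR-R1ENZR, so that VCaP was the low library. ATF3, a stress-induced transcription factor, stood at 2.45 and 101, and DDIT4, an inhibitor of mTORC1, at 19.5 and 405. ATF5 was lower at 77.6 and 5.89. Heat shock genes had 9 of 24 higher and 4 lower: the small chaperone HSPB1 stood at 1.37 and 110, whereas HSPA8, the constitutive HSP70 protein, stood at 2104 and 343 and its cochaperone DNAJA4 at 315 and 0.298. Antioxidant genes had 13 of 36 higher and 5 lower. SOD3, extracellular superoxide dismutase, stood at 6.66 and 999, beside 10.997 and 726 in CWR-R1 and CWR-R1ENZR. In the zinc and metallothionein list 1 of 12 was higher and 4 lower, and SLC30A4, a zinc exporter, stood at 395 and 4.53.

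Genes of energy metabolism differed by pathway. Glycolysis and hypoxia genes were higher in 13 of 34 and lower in 5, with a median of 0.58: ALDOA, aldolase, stood at 448 and 4409, and HK2, hexokinase, at 23.2 and 230. SLC16A3, a lactate exporter, stood at 8.48 and 118. NDRG1, an androgen- and hypoxia-responsive gene, was lower at 2368 and 299. Oxidative phosphorylation subunits stood within 2-fold for 36 of 47, with 9 higher and 2 lower. COX5B, a subunit of cytochrome oxidase, stood at 77.2 and 415. Fatty acid genes were higher in 5 of 39 and lower in 14. ELOVL2, an elongase, stood at 125 and 4.58 and ACSL5, an acyl-CoA synthetase, at 54.6 and 0.476. CPT1C, a carnitine palmitoyltransferase, was higher at 0.114 (2 reads) and 41.1. Cholesterol synthesis genes were spread around 0 with 6 of 29 higher and 5 lower, among them MVD at 4.38 and 55.9 and TM7SF2, a sterol reductase, at 761 and 81.4. Cytosolic ribosomal proteins, parts of one machine, lay close together: 0 of 77 were higher and 22 lower, with log2 ratios from -1.93 to 0.75 and a median of -0.69. Their summed level was 77853 in VCaP and 45983 in VCaPENZR. Against CWR-R1ENZR, 0 of the 77 differed at least 2-fold. Of 31 proteasome subunits 26 stood within 2-fold, and PSMA6, a core subunit, was highest at 75.5 and 779.

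Antigen presentation and interferon genes went apart. MHC class I heavy chains were higher: HLA-B stood at 23.6 and 705, 29.9-fold higher (27.1 to 33.1), and HLA-C at 36.3 and 906. HLA-E, a nonclassical chain read by natural killer cells, stood at 9.68 and 318. NLRC5, their transcriptional activator, stood at 2.33 and 111. Over the list 9 of 20 were higher and 3 lower, and the peptide trimming enzymes ERAP2 (36.1 and 2.02) and ERAP1 (42.1 and 19.9) were among those lower. HLA genes are near-identical and polymorphic, so their reads may be split or lost by the counting. Interferon response genes were lower in 14 of 30 and higher in 6, with a median of -0.97. They were also low beside CWR-R1ENZR, with 0 of 26 higher, 14 lower and a median of -1.05. OAS3, an antiviral nucleotide synthetase, stood at 92.2 and 1.31, and HERC6, a ubiquitin ligase, at 24.2 and 0, at least 135-fold lower, while IFITM1, a membrane restriction factor, was higher at 0 and 26.6. NF-kB and cytokine genes were lower in 9 of 17 and higher in 4. The chemokine CXCL11 (40.0 and 0) was at least 224-fold lower, and outside that list CCL22, a chemokine that attracts regulatory T cells, stood at 0 and 260 and CX3CL1, fractalkine, at 0.114 (2 reads) and 174.

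Cancer-testis genes, silent in most adult tissues, had the highest median of the 50 lists. Of 18 compared, 14 were higher and 3 lower, with a median of 5.78, and 16 of the 21 listed had no read in VCaP. Members without a read in VCaP could be compared only through their level in VCaPENZR, so the filter fixed their direction. MAGEA4 stood at 0 in VCaP and 296 in VCaPENZR, at least 1734-fold higher, beside 391 in CWR-R1 and 205 in CWR-R1ENZR. MAGEA3 stood at 0 and 118, and CTAG1A and CTAG1B each at 0 and 156. CTAG1A and CTAG1B are identical copies with identical values here and MAGEA genes are close paralogs, so these counts are not independent of one another. Against CWR-R1ENZR the median of the list was 0.04. TDRD1, a germline Tudor protein, and TEX15, a meiotic protein, were lower at 131 and 2.14 and at 28.2 and 3.27. Hepatic and intestinal identity genes were lower in 9 of 12 and higher in 2, with a median of -2.97. Only these 12 of the 23 listed genes were compared. A1CF, AFP, ALB, CDX2 and TTR were among those that reached 5 only in VCaP, so they could not count as higher. VIL1 and HLF, the 2 higher, reached 5 only in VCaPENZR, so they could not count as lower. CDX2, the intestinal homeobox factor, stood at 24.8 and 0, at least 139-fold lower. ALB, albumin, stood at 47.4 in VCaP, 0.0595 (1 read) in VCaPENZR, 191 in CWR-R1 and 0.0670 in CWR-R1ENZR. Ion channels were lower in 15 of 27 and higher in 8, with TRPV6, an epithelial calcium channel, at 81.9 and 0.238. Sterol, prostaglandin and retinoid signalling genes were higher in 14 of 22 and lower in 5. STRA6, the retinol uptake receptor, stood at 0.0569 (1 read) and 212, AHR, the dioxin receptor, at 4.90 and 217, and its target CYP1A1 at 9.17 and 297. HPGD, which degrades prostaglandins, stood at 92.7 and 0, at least 519-fold lower.

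**Figure D4:**
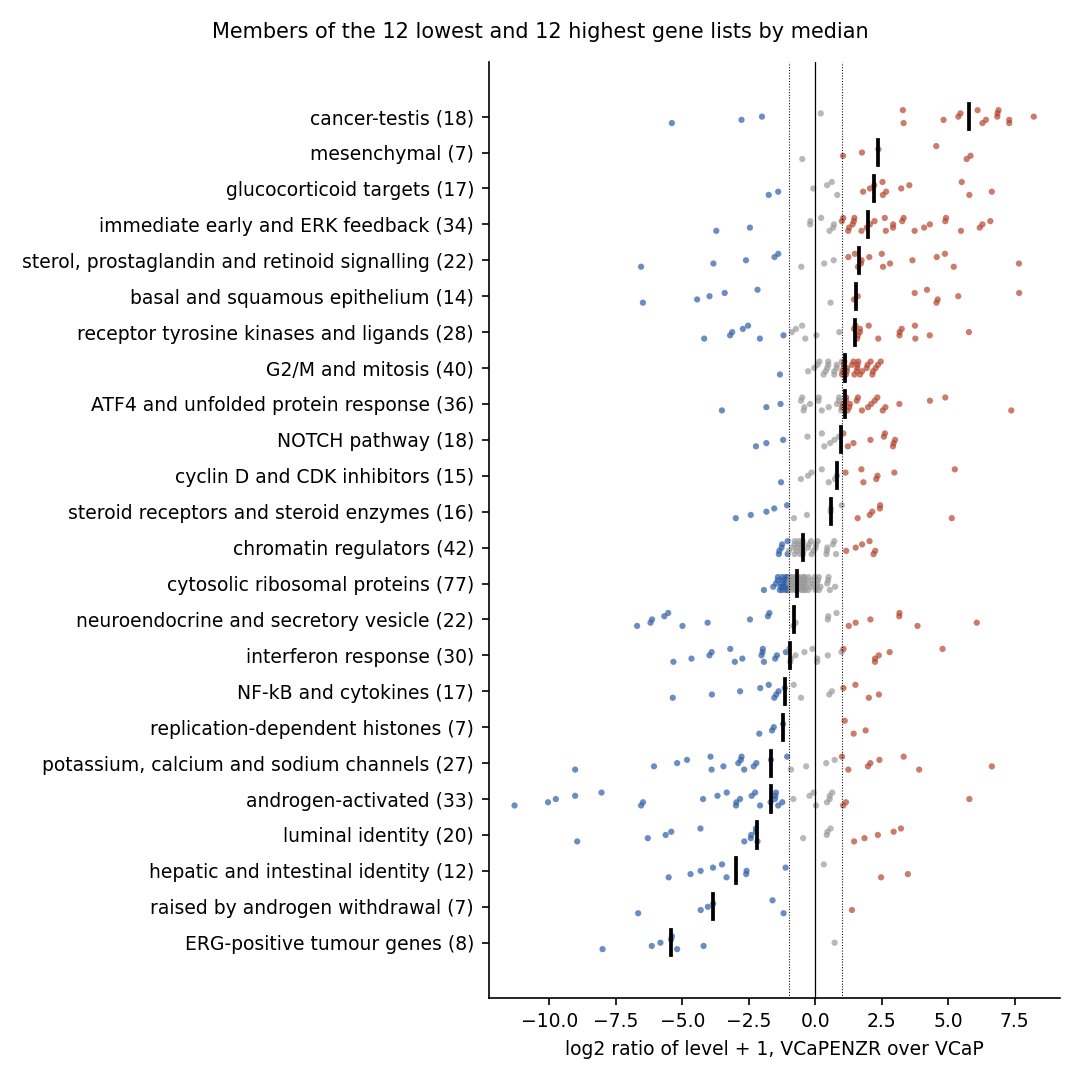
Log2 ratio of level plus 1, VCaPENZR over VCaP, for each compared member (points) of the 12 lowest and 12 highest gene lists by median among lists with at least 7 compared members; black bars are medians, dotted lines mark 2-fold, and the number compared stands in parentheses. Medians run from -5.41 for genes associated with ERG-positive tumours to 5.78 for cancer-testis genes, and the 77 ribosomal proteins form the tightest group drawn.

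At the extremes outside these lists stood genes of unlike roles. ITM2A, a membrane protein, stood at 771 and 0, at least 4316-fold lower, and NPY, neuropeptide Y, at 617 and 0, at least 3454-fold lower. LCP1, the actin bundler L-plastin, stood at 916 and 1.43. The highest log2 ratio of the comparison was that of CORO1A, the actin regulator coronin, at 0.285 (5 reads) in VCaP and 756 in VCaPENZR, 2657-fold higher (1138 to 8186), beside 4.18 in CWR-R1 and 272 in CWR-R1ENZR. PPP1R1B, the phosphatase inhibitor DARPP-32, stood at 0.569 (10 reads) and 619, beside 24.6 and 386. MYEOV stood at 0 and 272, at least 1593-fold higher, and at 13.2 and 99.2 in the CWR-R1 libraries. For these 3 genes the level was highest in VCaPENZR, next in CWR-R1ENZR, then in CWR-R1, and lowest in VCaP.

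A smaller set of genes set VCaPENZR apart from all of VCaP, CWR-R1 and CWR-R1ENZR. Of 12788 genes compared over these 4 libraries, 186 were at least 2-fold above all 3 others in VCaPENZR and 319 at least 2-fold below, a count that dropped to 206 with a pseudocount of 2. VCaP stood above its 3 others at 1096 genes and below at 1878. STRA6 stood at 212 in VCaPENZR against 0.0569 in VCaP, 0 in CWR-R1 and 14.3 in CWR-R1ENZR. RPS6KA3, the ERK-activated kinase RSK2, stood at 739 against 97.1, 82.8 and 94.5, and FBXL18, an F-box protein, at 567 against 37.4, 47.3 and 67.2. ARRB2, a beta-arrestin, stood at 569 against 26.0, 109 and 88.1, and AHNAK2, a large scaffold protein, at 664 against 17.3, 17.9 and 93.1. SLC6A12, a betaine transporter, stood at 33.1 against 0.683, 0.202 and 1.14. On the low side GPX1, a glutathione peroxidase found in most cells, stood at 0.119 (2 reads) in VCaPENZR against 251, 78.7 and 43.0. TBX3 stood at 8.75 against 770, 414 and 186, and SYT4, a vesicle protein, at 0 against 72.3, 126 and 8.38.

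Missing reads told the 2 libraries apart in both directions. VCaP had no read for 312 of the 14800 genes, of which 108 stood at 5 or more in VCaPENZR and 20 at 50 or more. VCaPENZR had no read for 494, of which 227 stood at 5 or more in VCaP and 34 at 50 or more. Among the 12868 genes listed in all tables, 29 had at most 3 reads in VCaP while standing at 5 or more in each of the 7 other libraries. For VCaPENZR this number was 6, for CWR-R1 it was 2, and for each of the 5 remaining libraries it was 0. VCaP lacked USP10, a deubiquitinase, at 0 against 153 in VCaPENZR, 160 in CWR-R1 and 119 in CWR-R1ENZR. It also lacked PPP2R2A, a regulatory subunit of protein phosphatase 2A, at 0 against 131, 124 and 133, and BNIP3L, a mitophagy receptor, at 0 against 94.3, 101 and 88.9. These genes were read at ordinary levels in VCaPENZR. The 6 genes of VCaPENZR were GPX1, GUCY1B3, PABPC1L, SLC35D2, SYT4 and ZNF618. GUCY1B3, a subunit of soluble guanylate cyclase, stood at 0 in VCaPENZR against 20.8 in VCaP.

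Some runs of neighbouring genes lay on the same side of 0 together. Compared genes were put in RefSeq order, which placed 12360 of them, and medians were taken over each run of 9 neighbours, 12176 overlapping runs in all. The median log2 ratio was at least 1 in 1057 runs and at most -1 in 947. The highest run, VMA21 to MAGEA6, held the MAGEA paralogs, with a median of 5.46. The run PPP4C to SLX1A-SULT1A3 (median 3.47, 9 of 9 higher) held CORO1A, the kinase MAPK3 (25.2 and 284) and YPEL3, a growth-restraining zinc finger protein (13.9 and 502). The run CDK12 to GRB7 (median 3.17, 7 of 9 higher and 1 lower) held PPP1R1B, ERBB2, MIEN1 (40.8 and 277) and the adaptor GRB7 (17.1 and 246). In CWR-R1ENZR, ERBB2, MIEN1 and GRB7 stood at 662, 63.3 and 142. CDK12, a transcriptional kinase at the edge of the run, stood lower at 114 and 53.5. The run GTF2H4 to MICB (median 2.79) held HLA-C and HLA-B with the stress ligand MICA (1.42 and 38.3). SLC7A5 and MVD lay in the run MAP1LC3B to MVD (median 2.62, 8 of 9 higher).

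The lowest run was the zinc finger cluster ZNF175 to ZNF615, with a median of -4.03. In it ZNF615 stood at 284 and 16.4 and ZNF350, a transcriptional repressor, at 125 and 5.66, beside 5.33 in CWR-R1 and 7.17 in CWR-R1ENZR. The run ABHD13 to ANKRD10 (median -3.10) held CARS2, a mitochondrial tRNA synthetase, at 208 and 22.9, while IRS2, an insulin receptor substrate beside it, was higher at 148 and 553. The run HOXA7 to EVX1 (median -2.85) held HOXA13 and the noncoding RNA HOTTIP, at 50.4 and 0. Copy number was not measured, and its part in these runs was not tested.

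**Figure D5:**
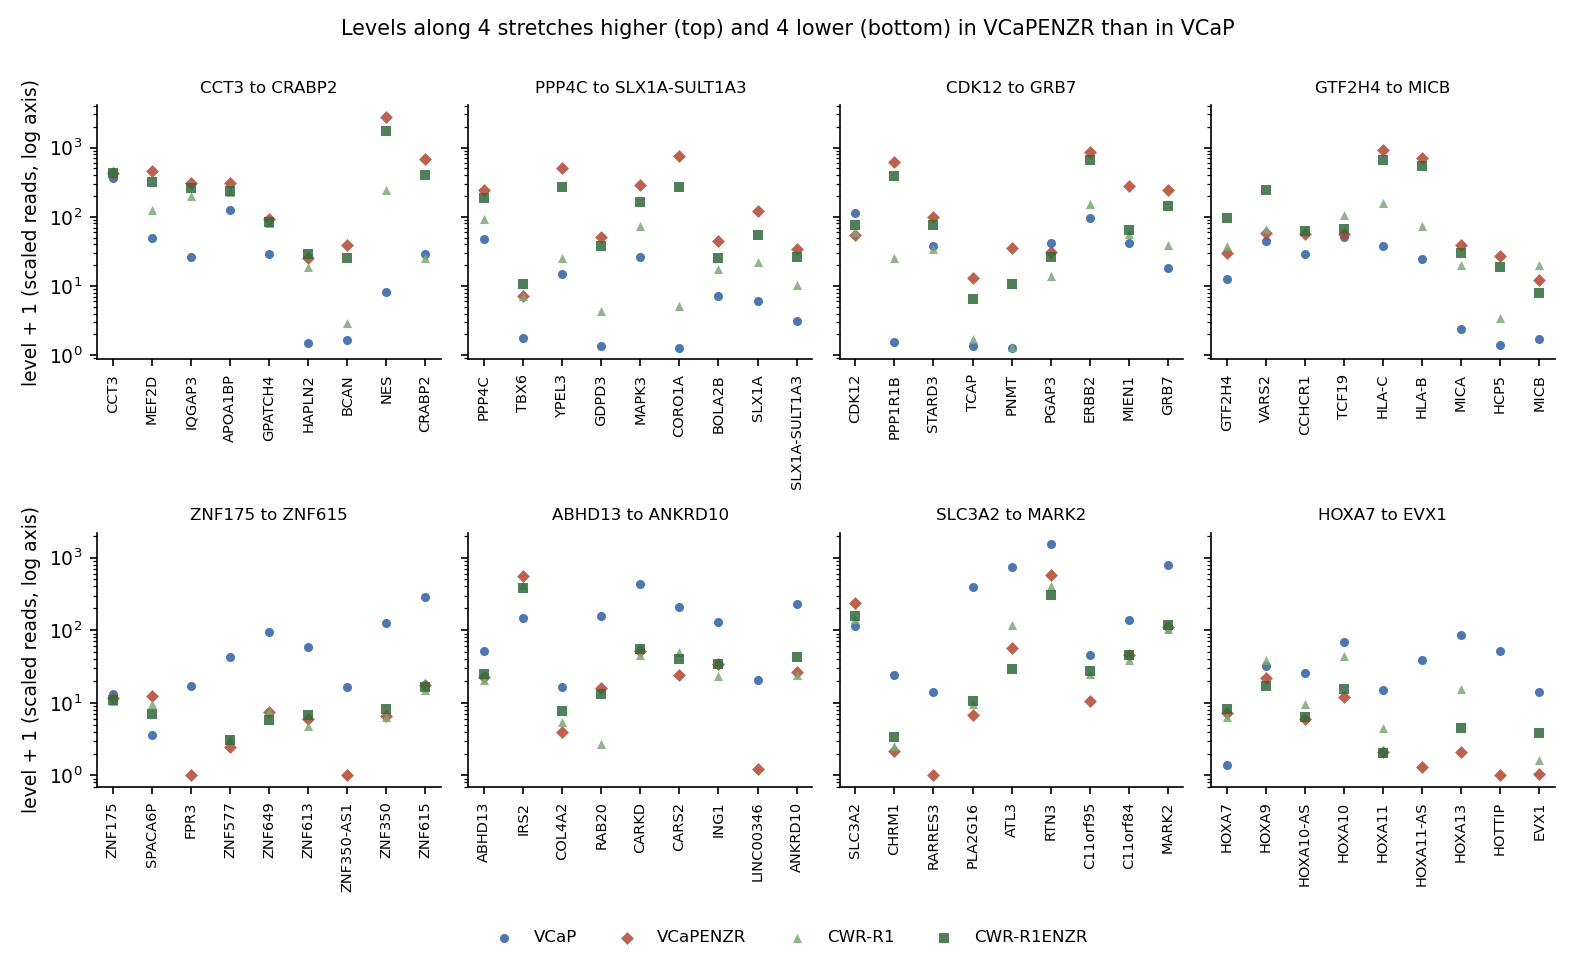
Level plus 1 (logarithmic axis) of 9 neighbouring genes in each of 8 runs, in VCaP, VCaPENZR, CWR-R1 and CWR-R1ENZR (1 point per library; genes in RefSeq order, no point where a table does not list the gene). In the 4 lower runs VCaP stands above the others for most genes, as for ZNF615 at 284 against 16.4 in VCaPENZR, and IRS2 is an exception at 148 against 553.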

How the data were processed

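Polyadenylated RNA of 8 libraries was sequenced as paired ends, with hg19 as the reference build per the submitters' processing notes. Aligner and counting program: not given in the sources used here. Per the file headers, each line has 1 deposited table that holds a scaled signal for every library, a fold score with a sign (resistant over sensitive) and p-value columns. The fold score and p-value columns that the authors deposited were not used, because no test is possible with 1 library per group and their origin is not stated.

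Dividing each deposited signal value by the value of 1 read gave whole reads for 100% of values in each library (tolerance 0.02 reads). A floor of 3 reads is a level of 0.171 in VCaP and 0.179 in VCaPENZR. Genes reaching 5 in either library were compared by the log2 ratio of value + 1, and those apart by 2-fold or more were counted, with no test. The steps were tested on simulated data. For 50 gene lists (1516 genes, 1283 listed) counts and medians were taken, with no set test. Members and lists were chosen with earlier results of these data known. Named genes were the 15 highest and 15 lowest, the 10 on each side that stood apart from VCaP, CWR-R1 and CWR-R1ENZR, up to 4 members per list with the largest difference and 2 in the opposite direction, and 22 fixed genes, of which 4 are not reported here. Genes named for runs of neighbours, for missing reads or as exceptions within a list were chosen after their values were seen.

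Promoter stretches and gene order came from RefSeq's GRCh38.p14 annotation, used for sequences and neighbours only; of the androgen-activated genes compared, 21 had a stretch. Alternatives were other pseudocounts, filters, fold thresholds and scalings and runs of 15 genes. Python 3.11.15, numpy 2.4.6, pandas 2.3.3, scipy 1.17.1 and matplotlib 3.10.9 were used.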

Additional observations from a re-analysis of the deposited data

Results flagged for a closer look

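Of the 18 fixed genes reported, 17 were compared, and 3 of them differed at least 2-fold in opposite directions between resistant and sensitive libraries of different lines, counting a gene of the C4-2B table only where each resistant replicate stood at least 2-fold from each sensitive one. The libraries were taken as labelled, and these differences were not tested. In VCaPENZR against VCaP an effect of resistance cannot be told apart from a difference between lines. TMPRSS2 had a log2 ratio of -2.39 in the VCaP table and of 1.06 in the CWR-R1 table. SLC45A3 had a log2 ratio of -2.97 in the VCaP table and of 1.21 in the C4-2B table, where each resistant replicate stood above each sensitive one. KLK2 narrowly missed this count: its log2 ratio was -11.31 in the VCaP table, and in the C4-2B table the 4 pairings of replicates ran from 0.94 to 1.07 with a mean of 1.01. SYP had a log2 ratio of -4.99 in the VCaP table and of 1.95 in the CWR-R1 table.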

How the results depend on the processing

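With 1 library per group, no result here has a replicate check. No paired analysis was possible because the groups compared hold 1 library each and no result comes from a test. The number of genes at least 2-fold higher and lower, 2643 and 2745, was 1126 and 1301 at a threshold of 4-fold. Scaling by total counts raised the median log2 ratio from 0.005 to 0.10 and gave 2889 higher and 2506 lower, and median-of-ratios size factors gave 2577 and 2805. Without a filter on low levels the counts were 3240 and 3363. The 319 genes in which VCaPENZR lay below VCaP, CWR-R1 and CWR-R1ENZR became 206 with a pseudocount of 2, an alternative chosen after seeing the data. Of 44 recomputed counts, 40 stayed within 1.5 times. No list median past 2-fold and no named gene past 2-fold changed sign. List medians nearer 0 did: those of extracellular matrix genes (-0.20 to 0.35) and HOX genes (-0.21 to 0.64) without the filter, that of cholesterol synthesis (0.05 to -0.08) with a minimum level of 10, and those of the insulin-like growth factor, TGF-beta and metallothionein lists with total counts. With runs of 15 genes, 3 of the 5 highest and 4 of the 5 lowest runs were found again. The cause of these differences was not tested.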

Other observations

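Some gene groups not described above differed in single members more than as a group. Chromatin regulators were higher in 6 of 42 and lower in 6, with a median log2 ratio of -0.45. HDAC9, a histone deacetylase, stood at 14.7 in VCaP and 73.7 in VCaPENZR, beside 3.24 in CWR-R1 and 4.42 in CWR-R1ENZR. KDM6B, a histone demethylase, stood at 48.1 and 223, and DNMT3B, a DNA methyltransferase, at 11.4 and 41.1. EP300, a histone acetyltransferase, was lower at 170 and 65.1, and RING1, a polycomb ubiquitin ligase, at 91.8 and 35.4.

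ABC transporters were higher in 5 of 21 and lower in 3, with a median of 0.21. ABCC2, an exporter of conjugates, stood at 0.114 (2 reads) and 16.7, and ABCA12, a lipid transporter of the skin barrier, at 1.94 and 36.1. ABCB9, a lysosomal peptide transporter, was lower at 52.1 and 14.5. Replication-dependent histone genes were higher in 3 and lower in 4 of 7, with HIST1H1C, a linker histone, at 47.0 and 14.5. Their messages lack a poly(A) tail as a rule, so that libraries of polyadenylated RNA hold few of their reads.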
